A study of Mus musculus with 34 samples.

Results

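The response to dexamethasone (Dex) was measured in mouse mammary adenocarcinoma cells carrying the D647V-Tetra form of the glucocorticoid receptor (GR, gene Nr3c1). The line contributes 6 of the 34 libraries of the series, chosen by their label: 3 treated with Dex and 3 with its ethanol vehicle (EtOH), all described below as Dex 1 to 3 and EtOH 1 to 3. Cells of this line derive from 3617 mammary adenocarcinoma cells in which GR was knocked out, and stably express a GFP-tagged mouse GR with the D647V-Tetra genotype. They were kept for at least 24 h in medium with 10% charcoal/dextran-stripped serum and 5 µg/ml tetracycline, then given 100 nM Dex or EtOH for 2 h, and total RNA was sequenced. The same holds for the lines used for comparison, D647V (3 Dex and 3 EtOH libraries) and the wild type receptor (WT) placed in the same library set (2 Dex and 2 EtOH). That the 3 lines form 1 set was inferred from the running library numbers in their titles and from a word that the headers of their count files share, since the labels assign no library to a batch. D647V is a substitution in the ligand-binding domain. The labels do not say what Tetra stands for. Each receptor form is represented by a single line, so a receptor form and any other difference between lines cannot be told apart. Each condition was done in triplicate per the labels, and whether the replicates are separate cultures is not stated, and p-values then measure only the spread between these libraries.

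GR is a nuclear receptor that stays in the cytoplasm bound to chaperones until a glucocorticoid binds it, then enters the nucleus and binds DNA at pairs of inverted half-sites with the letters AGAACA. Bound GR switches on genes for clock proteins, for inhibitors of inflammatory and growth factor signalling, and for metabolic enzymes, and it lowers many genes driven by the transcription factors NF-kB and AP-1. In mammary epithelial cells glucocorticoids are known for effects on differentiation, cell survival and secreted proteins.

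The 6 libraries held 65271217 to 75690146 counted reads each, and 21760 to 22692 gene names had at least 1 read. Of the 12 luminal mammary epithelial markers examined, 4 were expressed well enough to be tested, and Krt18, Epcam, Cldn3, Elf5 and Foxa1 had no read in any of the 6 libraries. The summed level of the luminal markers was 8.98 to 11 CPM (counts scaled to the normalised library size) in EtOH and 16.4 to 18.9 CPM in Dex. Of the 8 basal mammary epithelial markers 4 were tested, and the 8 summed to 21.05 to 21.61 CPM in EtOH and 24.65 to 28.47 CPM in Dex. Luminal and basal markers were thus present at low summed levels. The 11 fibroblast and mesenchymal markers summed to 6197 to 7175 CPM in EtOH and 6547 to 6855 CPM in Dex, with Thy1 and Fap at 0. The sum does not show which members carry it. Immune markers summed to at most 9.25 CPM and endothelial markers to at most 2.92 CPM in any library. Fewer cells of a type and less RNA per cell cannot be told apart in such bulk samples. Nr3c1 itself, whose count takes in the introduced receptor, stood at 276, 258 and 256 CPM in EtOH and at 236, 250 and 236 CPM in Dex. The groups did not overlap, but the difference of -0.13 ± 0.05 (log2, SE, n = 3 against 3) did not pass the test (edgeR adjusted p = 0.115).

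The libraries of the 2 treatments also differed along gene length. Among the shortest sixth of the expressed genes (67 to 2330 exonic bases), the median log2 ratio to the mean of the line was 0.15, 0.03 and 0.09 in EtOH 1 to 3 and -0.10, -0.04 and -0.13 in Dex 1 to 3. Among the longest sixth (from 8400 bases) it was -0.10, -0.03 and -0.09 in EtOH and 0.08, 0.05 and 0.09 in Dex. Each of the 3 EtOH libraries was thus high in short genes and each of the 3 Dex libraries high in long genes, with EtOH 1, EtOH 3, Dex 1 and Dex 3 farthest from the mean. Length and treatment go together in these 6 libraries and cannot be told apart by design. Counts and calls are therefore given beside a fit with a length offset, in which each library's own trend over length is removed, and beside fits without single libraries.

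**Figure D1:**
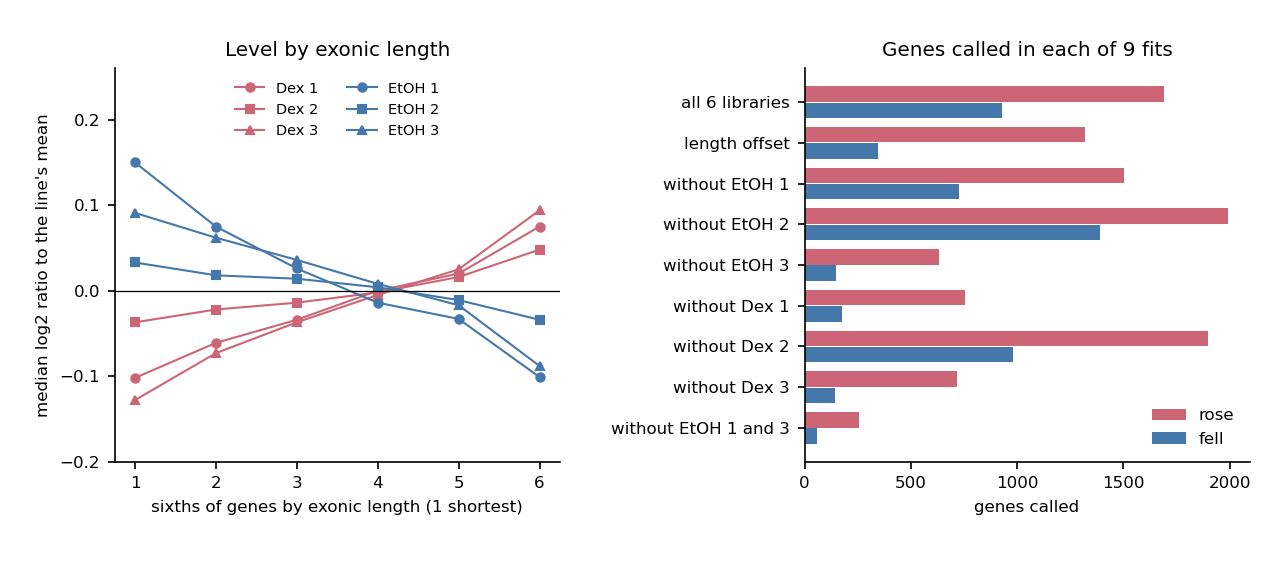
Left: median log2 ratio of each library to the mean of the D647V-Tetra line, over genes in sixths of exonic length (1 the shortest), EtOH in blue and Dex in red; the 3 EtOH lines descend and the 3 Dex lines climb. Right: number of genes called (adjusted p below 0.05) as risen or fallen in each of 9 fits, from 1691 and 928 with all 6 libraries to 258 and 57 without EtOH 1 and 3.

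Between the Dex and EtOH libraries 2619 of 16141 tested genes differed, which is 16.2% (edgeR quasi-likelihood test, Benjamini-Hochberg adjusted p below 0.05). Of these 1691 rose (10.5% of the genes tested) and 928 fell (5.75%). Large changes were rises: 362 genes rose and 23 fell at least 2-fold, and 49 rose and 0 fell at least 4-fold. The median log2 fold change over all tested genes was -0.006. Genes that rose had a median exonic length of 6258 bases, genes that fell 2171 bases, and all tested genes 3529 bases. In the fit with the length offset the medians were 3894 bases for rises and 6786 bases for falls. The offset thus did not leave the calls even over length. With the length offset 1669 genes were called (10.3%), 1322 that rose (8.19%) and 347 that fell (2.15%), and of the calls without it 68.8% of the rises and 21.0% of the falls remained. Leaving out EtOH 3 gave 634 rises and 146 falls, leaving out Dex 1 gave 754 and 178, and leaving out Dex 3 gave 719 and 145. Without both EtOH 1 and 3, 258 genes rose (1.49%) and 57 fell (0.329%). Genes called the same way in all 9 of these fits (6 libraries, length offset, each library left out, and EtOH 1 and 3 left out together) numbered 240 that rose (1.49% of the genes tested) and 46 that fell (0.285%), a criterion chosen after the data were seen. Groups without overlap, all 3 Dex values on one side of all 3 EtOH values, occurred in 37.9% of all tested genes, so that separation by itself is common here. The falls in particular rested on which libraries and which adjustment entered the fit.

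**Figure D2:**
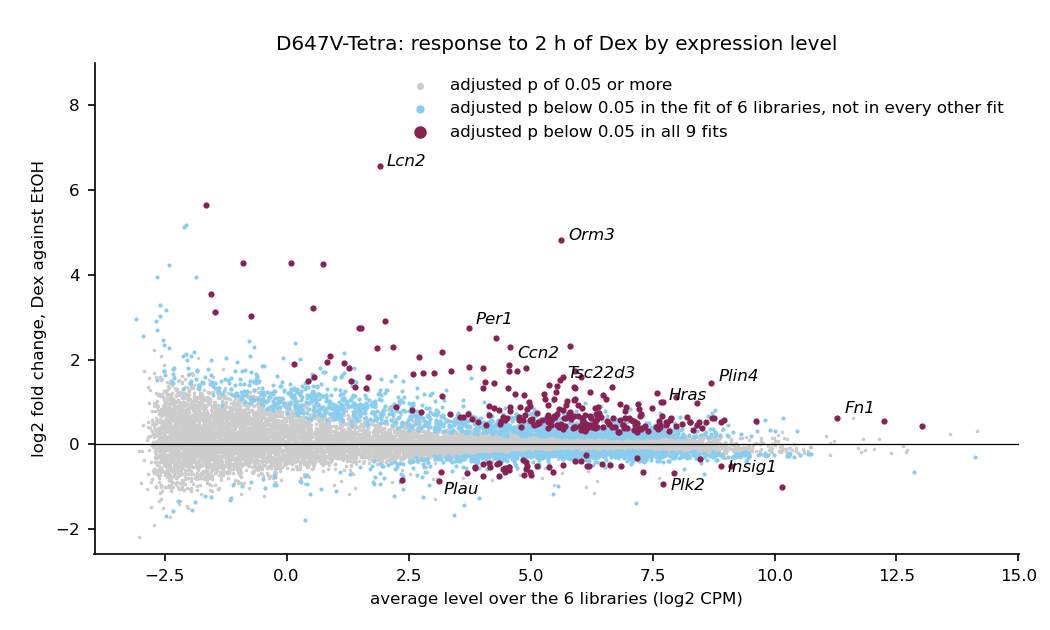
Each point is 1 of the 16141 tested genes, with its average level (log2 CPM) on the x axis and its log2 fold change, Dex against EtOH, on the y axis. Purple points were called in all 9 fits, light blue points in the fit of 6 libraries but not in every other fit, and grey points not; the purple points reach far above 2 on the upper side and about -1 on the lower side.

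The acute phase genes rose most. Lcn2, which encodes the secreted siderophore-binding protein lipocalin 2 (mm10 chr2:32384633-32388252, minus strand), stood at 0, 0.14 and 0.08 CPM in EtOH and at 7.94, 6.35 and 7.72 CPM in Dex. It was close to undetected in every EtOH library and clearly present in every Dex library, a log2 fold change of 6.56 ± 0.37 (SE, n = 3 against 3; edgeR adjusted p = 4.3e-06). Orm3, a gene of the orosomucoid family of secreted plasma glycoproteins (mm10 chr4:63356162-63359511, plus strand), stood at 3.62, 3.27 and 3.32 CPM in EtOH and at 96.4, 91.1 and 99.6 CPM in Dex. The groups lay far apart with little spread in either, and the rise was 28.2-fold (log2 4.82 ± 0.07, edgeR adjusted p = 2.2e-10). Its neighbours on chromosome 4, Orm1 and Orm2, rose by 4.26 and 4.29 on the log2 scale from at most 0.17 CPM in EtOH. The 3 genes have near-identical exons, and how reads were divided between them is uncertain. The adjoining collagen gene Col27a1, below 1 CPM, also rose (log2 1.49 ± 0.39) but did not pass with the length offset (edgeR adjusted p = 0.0584).

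The sequence before a start site is shown for Orm3, the member with the lowest p, and for Sgk1, which encodes a serum- and glucocorticoid-regulated kinase and whose rise in this line was small beside the other lines. Both are from the RefSeq promoter table (build GRCm38.p6), the 250 bases before an annotated start, 5′ to 3′ on the gene's strand, at chr4:63355908-63356157 (plus strand) for Orm3 and chr10:21993640-21993889 (plus strand) for Sgk1, whose start here is the fifth of 6 listed. It is shown because it alone of the 6 holds a pair of inverted half-sites. The Sgk1 window lies within introns of longer Sgk1 transcripts. Capitals mark the GR half-site, AGAACA or its complement TGTTCT.
Orm3: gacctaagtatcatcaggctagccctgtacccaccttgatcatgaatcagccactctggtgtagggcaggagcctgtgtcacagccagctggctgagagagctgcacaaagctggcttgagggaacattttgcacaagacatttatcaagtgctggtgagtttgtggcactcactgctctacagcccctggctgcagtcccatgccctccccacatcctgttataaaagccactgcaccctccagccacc
Sgk1: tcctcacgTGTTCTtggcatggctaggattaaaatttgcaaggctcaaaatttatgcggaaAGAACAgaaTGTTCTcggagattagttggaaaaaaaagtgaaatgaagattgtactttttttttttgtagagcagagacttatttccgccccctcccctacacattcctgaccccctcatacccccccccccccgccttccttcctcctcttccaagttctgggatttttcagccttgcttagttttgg
The Sgk1 window holds a pair of inverted half-sites, AGAACA then 3 further bases then TGTTCT, letters that occur in 3 of 32851 promoter windows of this length (0.01%). The Orm3 window holds no half-site. It holds TGAATCA, a match to the letters TGANTCA with any base at N, as do 6.75% of windows. A half-site on either strand was found in 16.1% of all windows, in 11.3% of the 62 windows matched to genes that rose at least 2-fold and were called in all 9 fits (42 of 73 genes matched), and in 17.1% of the 41 windows of the genes that fell in all 9 fits (31 of 46 matched). These are matches of letters only, and binding was not measured here.

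A list of classic GR-induced genes was chosen, like the other lists, with earlier results of these data known, so its counts are a description. Of its 32 tested genes 25 rose and 2 fell (Ddit4 and Anxa1), against 10.5% and 5.75% of all tested genes. The median log2 fold change of the list was 0.85, and 20 members rose in all 9 fits. With the length offset 25 rose and 0 fell, and without EtOH 1 and 3, 21 rose and 1 fell. The clock gene Per1, which represses its own transcription in the circadian cycle, rose from 2.53, 4.03 and 3.75 to 27.2, 18.7 and 23.1 CPM (6.67-fold, log2 2.74 ± 0.18). Dex 2 was the lowest of the Dex libraries for Per1 and still stood far above the highest EtOH library. Of 18 clock genes 4 rose and 0 fell, against 10.5% and 5.75% of all tested genes. The 4 were Per1, Per2 (log2 0.88), Bhlhe41 (0.61) and Nfil3 (0.36), the first 3 of them in all 9 fits. The repressors Bhlhe41 and Per2 belong to the negative limb of the clock.

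Other members of the classic list are given next, and each rose in all 9 fits unless said otherwise. Tsc22d3, which encodes the glucocorticoid-induced leucine zipper GILZ, went from 25.5, 24.2 and 26 to 72.0, 72.1 and 71.6 CPM (log2 1.51 ± 0.05). The values within each treatment were nearly equal and the groups did not overlap. Errfi1, an inhibitor of the EGF receptor, went from 27.7, 25.03 and 30.5 to 90.4, 95.1 and 92.5 CPM (log2 1.74 ± 0.07). Dusp1, a phosphatase that inactivates MAP kinases, went from 8.59, 9.17 and 9.89 to 23.2, 23.2 and 23.3 CPM (log2 1.33 ± 0.07). All libraries of a treatment were again close together for both genes. Fkbp5, a co-chaperone that holds GR in a low-affinity state, rose by 0.87 ± 0.06, the metallothionein Mt1 by 0.93 ± 0.07, the glutamine synthetase gene Glul by 0.72 ± 0.04 and the cell cycle inhibitor Cdkn1a by 0.66 ± 0.07 on the log2 scale. Nfkbia and Zfp36, inhibitors of NF-kB signalling and of unstable inflammatory transcripts, rose by 0.21 and 0.64, each called with all 6 libraries and with the length offset but not in all 9 fits. Sgk1, with the inverted half-sites printed above, rose from 108, 104 and 110 to 192, 190 and 194 CPM, a 1.79-fold rise (log2 0.84 ± 0.04, edgeR adjusted p = 3.7e-06). The 3 Dex values were close to each other and well above every EtOH value.

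**Figure D3:**
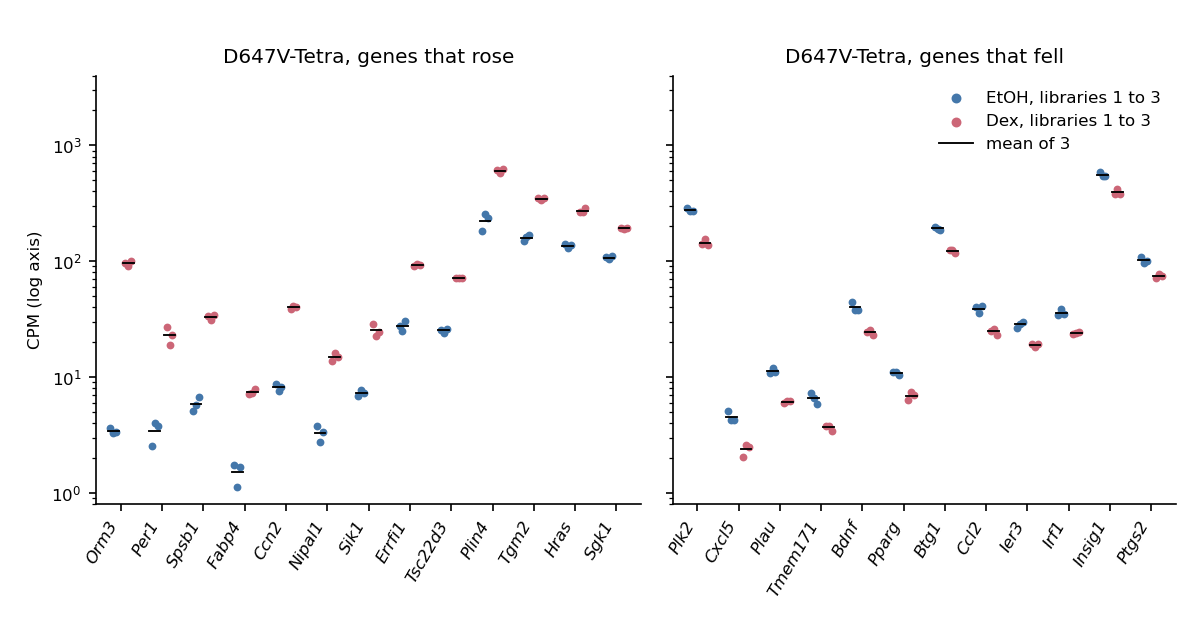
CPM of each D647V-Tetra library (log axis) for 13 genes that rose (left) and 12 that fell (right), EtOH in blue and Dex in red, 3 libraries each, with the mean of 3 as a bar. In every gene shown the 3 Dex points lie on one side of the 3 EtOH points, as they do in 37.9% of all tested genes. For the 12 highest and 12 lowest genes the naming rule required this. The gaps are wider for the genes that rose, such as Orm3 (3.27 to 3.62 against 91.1 to 99.6 CPM), than for those that fell, such as Ptgs2 (96.97 to 110 against 71.7 to 78.1 CPM).

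The other genes with the highest rises encode proteins of several kinds, and each of those named here rose in all 9 fits. Spsb1, an adaptor of a ubiquitin ligase, rose 5.65-fold (5.07, 5.75 and 6.70 to 33.8, 30.9 and 34.4 CPM). Fabp4, a fatty acid carrier of adipocytes and macrophages, rose 4.93-fold from 1.74, 1.11 and 1.68 to 7.16, 7.27 and 7.90 CPM. Nipal1, a magnesium transporter gene, rose 4.51-fold, and its neighbour Cnga1 on chromosome 5 rose by 3.55 on the log2 scale from a low level. Sik1, a salt-inducible kinase, rose 3.46-fold, the adhesion receptor gene Adgra1 3.66-fold, the sperm protein gene Zan 4.81-fold and the focal adhesion gene Tns1 3.46-fold. Tgm2, a transglutaminase that crosslinks proteins, rose from 148, 161 and 168 to 351, 340 and 348 CPM (2.18-fold). Il6ra, the receptor chain for interleukin 6, rose 3.29-fold, and Gata3, a luminal transcription factor, 2.18-fold (5.11, 5.74 and 6.11 to 13.1, 11.9 and 12.2 CPM). Gata3 is the 1 luminal marker of 4 tested that rose, and Mylk, a myosin kinase gene (log2 0.43 ± 0.08, not in all 9 fits), the 1 basal marker of 4. On the list of transport genes known as steroid targets 2 of 8 rose in all 9 fits, against 1.49% of all tested genes. They were the zinc transporter gene Slc39a14 (105, 119 and 124 to 284, 246 and 277 CPM) and Slc25a33 (2.50-fold). Glucose and glutamine genes were near the background, with 3 of 23 rising against 10.5% of all tested genes. Of these, Glul rose in all 9 fits. Hras rose 2.01-fold (141, 129 and 137 to 267, 265 and 286 CPM); the parental 3617 cells are known to carry a ras reporter behind a glucocorticoid-responsive viral promoter, and its reads were not told apart from those of the endogenous gene.

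Inflammatory genes showed more falls than rises, and with all 6 libraries their rises were near the share of all tested genes. Of the 31 genes on the list of inflammatory and NF-kB targets 16 were tested, and others, such as Il6, Tnf, Il1b and Cxcl2, were too low. Of the 16 tested 8 fell and 2 rose, against 5.75% and 10.5% of all tested genes. The median of the list was -0.24. The length offset gave 7 falls and 4 rises, against 2.15% and 8.19% of all tested genes. In all 9 fits 4 members fell: Ccl2, Irf1, Ptgs2 and Csf1. The chemokine gene Ccl2 went from 39.9, 35.8 and 40.8 to 24.9, 26.2 and 23.2 CPM (log2 -0.65 ± 0.07, edgeR adjusted p = 5.4e-04). Every Dex library was below every EtOH library. The transcription factor gene Irf1 fell by 0.59 ± 0.07, the cyclooxygenase gene Ptgs2 by 0.45 ± 0.06 and the macrophage growth factor gene Csf1 by 0.35 ± 0.06 on the log2 scale. The neutrophil chemokine gene Cxcl5, low throughout, went from 5.08, 4.27 and 4.22 to 2.02, 2.57 and 2.50 CPM (log2 -0.93 ± 0.14) and was called with the length offset and without any single library, but not without EtOH 1 and 3. Cxcl1 had values of 9.55, 8.38 and 8.87 CPM in EtOH and 9.79, 10.0 and 9.74 CPM in Dex, which did not pass the test (edgeR adjusted p = 0.261) but did with the length offset (0.0375). The 2 that rose were Nfkbiz (log2 0.58) and Tnfaip3 (0.41), of which Tnfaip3 encodes an inhibitor of NF-kB signalling.

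Immediate early genes, switched on by growth factors within minutes, showed fewer changes. Of 25 tested 8 fell and 1 rose, with a median of -0.03, against 5.75% and 10.5% of all tested genes. The length offset left 3 falls and 1 rise, against 2.15% and 8.19% of all tested genes. Ier3, Klf10 and Ier5 fell in all 9 fits, by 0.60, 0.52 and 0.40 on the log2 scale. Jun fell by 0.22 with all 6 libraries but did not pass with the length offset (edgeR adjusted p = 0.0796). Fos stayed below 1 CPM in every library and Myc lay between 60.2 and 71.9 CPM in both treatments, with overlapping groups for both. Among 27 growth factor ligands and feedback genes of the MAP kinase pathway 7 fell and 3 rose, against 5.75% and 10.5% of all tested genes. Of these, 6 falls and 2 rises held in all 9 fits, against 0.285% and 1.49% of all tested genes. The neurotrophin gene Bdnf fell most, from 44.8, 37.5 and 37.7 to 24.4, 25.2 and 23.1 CPM (log2 -0.72 ± 0.08). The phosphatase genes Dusp14, Dusp10 and Dusp4 fell by 0.53, 0.53 and 0.39 while Dusp1 rose, and the EGF receptor ligand gene Hbegf fell by 0.46. Vegfa, the endothelial growth factor gene, rose by 0.41 ± 0.05. With all 6 libraries the rises of the list were thus near the share of all tested genes. The MAP kinase phosphatase genes were split between the directions (Dusp16 also rose, outside all 9 fits).

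Genes of the YAP, TGF-beta and BMP pathways changed in both directions, 8 up and 6 down of 32, with 5 and 3 in all 9 fits. The shares of all tested genes were 10.5% and 5.75%, and 1.49% and 0.285% in all 9 fits. Ccn2, which encodes connective tissue growth factor, rose from 8.67, 7.50 and 8.23 to 39.0, 40.7 and 39.8 CPM (4.90-fold, log2 2.29 ± 0.07). The 3 libraries of each treatment were close, without overlap between treatments, which the naming rule required. Tead4, a DNA-binding partner of YAP, rose 2.51-fold and Tead1 by 0.79 (log2), while the YAP target Ankrd1 fell by 0.69, the scaffold gene Ajuba by 0.50 and the inhibitory Smad6 by 0.74. On the list of plasminogen system and matrix genes 4 of 26 rose and 4 fell, against 10.5% and 5.75% of all tested genes. Plau, the urokinase that activates plasminogen, went from 10.7, 11.9 and 11.1 to 6.004, 6.19 and 6.20 CPM (log2 -0.88 ± 0.08, in all 9 fits). Fibronectin, Fn1, was among the highest expressed genes and rose from 1811, 2181 and 1870 to 3222, 2801 and 3057 CPM (log2 0.63 ± 0.08), and its receptor subunit Itga5 rose by 0.64. The treatments did not overlap for Plau, Fn1 or Itga5, as in 37.9% of all tested genes, and Plau was named by a rule that required this.

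Of 19 tested genes of lipid storage and adipogenesis 5 rose and 3 fell, against 10.5% and 5.75% of all tested genes. The lipid droplet coat gene Plin4 rose 2.72-fold, from 181, 253 and 234 to 615, 574 and 627 CPM, and the adipogenic regulator Pparg fell (11.1, 11.1 and 10.4 to 6.31, 7.47 and 6.96 CPM; log2 -0.66 ± 0.09). EtOH 1 was the lowest library for Plin4, still without overlap. Plin4, Fabp4 and Pparg were called in all 9 fits, while the other members, such as Angptl4 (log2 0.29) and Cebpb (0.36), were not.

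Plk2, a kinase of the p53 and stress responses, had the largest fall among protein-coding genes that met the naming criteria. It went from 286, 272 and 273 to 140, 154 and 138 CPM (log2 -0.94 ± 0.06, edgeR adjusted p = 8.8e-06), a fall of 1.92-fold. The naming criteria required treatments without overlap. Of 21 p53 target and growth arrest genes 6 fell and 4 rose, against 5.75% and 10.5% of all tested genes. Btg1, an antiproliferative gene, fell by 0.65 and Gadd45a by 0.73, while its paralog Gadd45g rose by 0.60 and Cdkn1a rose as given above. Among 22 genes of the integrated stress and unfolded protein responses 5 fell and 1 rose, against 5.75% and 10.5% of all tested genes. The stress transcription factor gene Ddit3 (-0.50), Nupr1 (-0.57) and Chac1 (-0.48) fell in all 9 fits, and Herpud1, a membrane protein of the endoplasmic reticulum, rose (0.48). In the cholesterol synthesis list 5 of 22 fell and 0 rose, against 5.75% and 10.5% of all tested genes. Insig1, which holds back the pathway's transcription factors, fell from 586, 546 and 548 to 382, 419 and 380 CPM in all 9 fits. The other 4 were not called in all 9. Cell cycle genes were near the background, with 3 up and 3 down of 30, of which Cdk6 (log2 0.46) rose in all 9 fits. The cell cycle list thus showed no excess of rises over all tested genes.

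Long genes for GR's nuclear cofactors were among the rises that leaned on the libraries used. Of 29 genes for chaperones and cofactors 10 rose and 0 fell, against 10.5% and 5.75% of all tested genes. The median of the list was -0.02. The acetyltransferase genes Ep300 and Crebbp rose by 0.75 and 0.82 and the coactivator gene Ncoa1 by 0.36. Their exonic lengths of 14273, 13540 and 8576 bases are above the median of all tested genes. With the length offset Ep300 and Crebbp had log2 fold changes of 0.55 and 0.64 and 8 list members rose, and 2 members, Fkbp5 and Ep300, rose in all 9 fits. The part of the length trend in the other rises was not tested.

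Short transcripts showed the converse. Of 32 cytosolic ribosomal protein genes 23 fell and 0 rose, with a median of -0.24, against 5.75% and 10.5% of all tested genes. With the length offset 2 fell, while 12 fell without EtOH 1 and 1 without EtOH 3. Rplp1 (499 exonic bases), for example, had 1048, 989 and 1020 CPM in EtOH and 854, 883 and 812 CPM in Dex, a log2 fold change of -0.26 that became 0.01 with the offset. Of 12 structural RNA genes 5 fell, against 5.75% of all tested genes, and 2 with the offset, against 2.15%. The 12 lowest log2 fold changes among genes that met the naming criteria included Snora23 (-1.43), Rnu3a (-1.40), Rny1 (-1.17), Rn7s2 (-0.98) and Rnu3b1 (-0.93), structural RNAs of 112 to 300 bases, several from multicopy families whose reads may be shared. In Rnu3a the values were 274, 134 and 211 CPM in EtOH and 90.1, 111 and 34.0 CPM in Dex. The treatments were separate, as the naming criteria required, but the spread within each was wide. Of these 5, Rn7s2 was called with the length offset. Among the mitochondrially encoded genes, several of which are short, 4 of 14 rose and 0 fell, against 10.5% and 5.75% of all tested genes. Their median was 0.30, and with the offset 5 rose, against 8.19% of all tested genes. The ribosomal RNA mt-Rnr2 had 7679, 7179 and 6597 CPM in EtOH and 9478, 9608 and 9741 CPM in Dex and was called in all 9 fits. Mitochondrial reads made up 1.37 to 1.38% of counts in EtOH and 1.66 to 1.87% in Dex, and the part of library quality in this rise was not tested.

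Loci of unsettled status formed a further group. GENCODE's TEC class, loci that still await experimental testing, made up 333 of the 1691 rises (1081 tested) and 2 of the falls, and 306 of the 333 were also called with the length offset. Their share of all counted reads was 0.126%, 0.171% and 0.131% in EtOH 1 to 3 and 0.224%, 0.186% and 0.273% in Dex 1 to 3. The groups did not overlap, but EtOH 2 and Dex 2 lay close. Sense intronic loci showed the same, with 48 of 175 rising, 47 of them also with the length offset, and 0 falling. By comparison, 10.5% of all tested genes rose with all 6 libraries and 8.19% with the length offset. In all 9 fits 15 of the 1081 TEC loci and 1 of the 175 sense intronic loci rose, against 240 of 16141 tested genes (1.49%). Neither class thus showed an excess of rises under that criterion. It requires calls with libraries left out, which loci with few reads can miss for lack of reads. It therefore cannot decide on the excess seen with all 6 libraries and with the length offset.

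**Figure D4:**
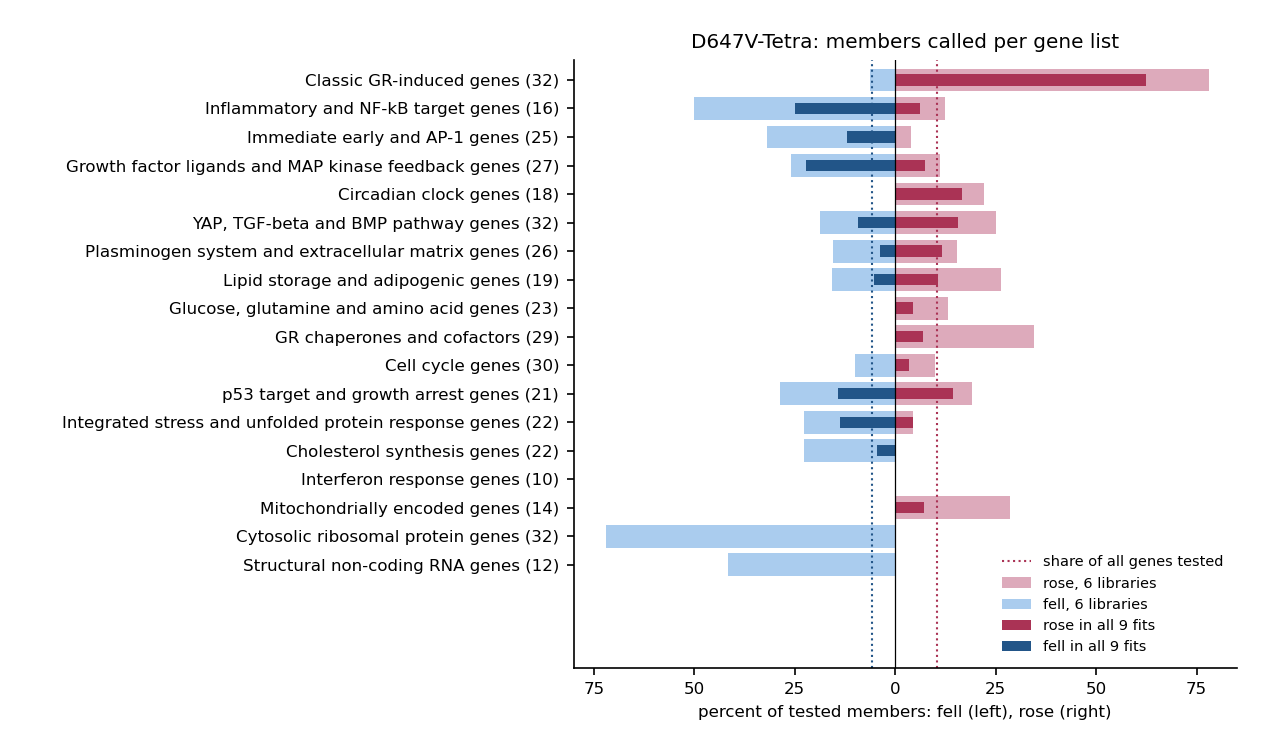
Percent of tested members (number in brackets) that fell, to the left, or rose, to the right, for lists with at least 10 tested members; wide pale bars are the fit of 6 libraries and narrow dark bars the members called in all 9 fits. Dotted lines mark the shares of all tested genes, 10.5% risen and 5.75% fallen. The classic GR-induced genes keep a long dark bar, while the ribosomal protein bar has no dark part. The lists were chosen with earlier results of these data known.

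The response was then compared with that of D647V, the line most like it, by a test of the difference between the 2 responses (16 libraries of the set, 17535 genes). The difference passed for 153 genes (0.873%), higher in D647V-Tetra for 136 (0.776%) and lower for 17 (0.0969%). In D647V-Tetra, Orm3 rose far more: D647V went from 3.48, 2.69 and 3.21 CPM to 17.7, 21.6 and 20.1 CPM, so that EtOH levels overlapped while every D647V-Tetra Dex library was more than 4 times the highest D647V Dex library. The log2 fold changes were 4.82 and 2.66, a difference of 2.15 ± 0.16 (SE; edgeR adjusted p = 1.2e-06). Nipal1 (difference 1.63 ± 0.17), Adgra1 (1.27 ± 0.13), Il6ra (1.10 ± 0.11), the mitochondrial pyrimidine carrier gene Slc25a33 (1.02 ± 0.15) and Sik1 (0.97 ± 0.13) also rose more in D647V-Tetra. So did Errfi1 (0.80), Tgm2 (0.79), Dusp1 (0.76) and Hras (0.59). All of these differences passed with the length offset and with any 1 of the 12 libraries of the 2 lines left out, and all but Dusp1 (edgeR adjusted p = 0.116) without D647V-Tetra EtOH 1 and 3.

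Ccn2 and Sgk1 went the other way. Ccn2 in D647V rose from 8.49, 7.62 and 8.46 to 194, 180 and 180 CPM, while in D647V-Tetra it stopped near 40 CPM from overlapping EtOH levels. The log2 fold changes were 2.29 in D647V-Tetra and 4.49 in D647V, a difference of -2.20 ± 0.09 (edgeR adjusted p = 1.2e-10). Sgk1 in D647V rose from 117, 122 and 121 to 412, 418 and 394 CPM, which put every D647V Dex library at more than 2 times any D647V-Tetra Dex library. Its log2 fold changes were 0.84 and 1.76, a difference of -0.93 ± 0.06 (edgeR adjusted p = 2.6e-07). Aldh1a7, an aldehyde dehydrogenase gene, stood at 36.9 to 40.2 CPM in EtOH and 38.1 to 38.5 CPM in Dex in D647V-Tetra but rose in D647V (log2 0.43; difference -0.44 ± 0.07). Plk2 fell more in D647V-Tetra (-0.94 against -0.53; difference -0.41 ± 0.07). These 4 passed with the offset and with any 1 library left out, but without D647V-Tetra EtOH 1 and 3 Aldh1a7 (edgeR adjusted p = 0.121) and Plk2 (0.149) did not. Cxcl5 (-0.92), Plau (-0.55), Ccl2 (-0.46) and Tsc22d3 (-0.35) also had lower values in D647V-Tetra with adjusted p below 0.05 in the fit of 16 libraries, but their highest adjusted p with 1 library left out were 0.0758, 0.107, 0.152 and 0.119, and Cxcl5, Plau and Ccl2 did not pass with the length offset. Per1, Lcn2, Cdkn1a, Mt1, Ptgs2 and Dusp4 did not pass the test of a difference, for which Per1 had -0.09 ± 0.20. With the length offset Mt1 did pass (0.35, edgeR adjusted p = 0.0411).

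The counts of differing genes were far less stable than these genes. With the length offset 83 genes differed (0.473%), 69 higher (0.393%) and 14 lower (0.0798%). Leaving out any 1 of the 12 libraries except D647V-Tetra Dex 2 moved the number of higher genes by more than 1.5 times, to between 42 (without D647V EtOH 2) and 242 (without D647V-Tetra EtOH 2), and the number of lower genes lay between 6 and 29. Without D647V-Tetra EtOH 1 and 3 they were 26 and 2.

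**Figure D5:**
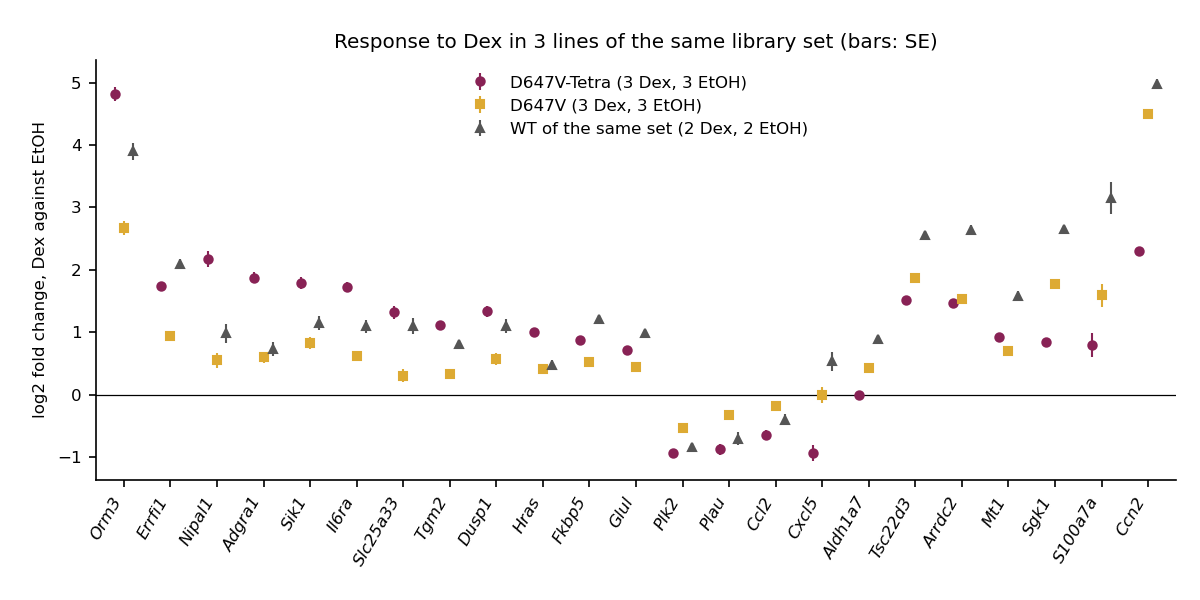
Log2 fold change, Dex against EtOH, with its SE for 23 named genes in D647V-Tetra, D647V and WT of the same library set, all from the fit of 16 libraries. Orm3, Nipal1 and Adgra1 lie highest in D647V-Tetra (Orm3 4.82 against 2.66 and 3.90), and Ccn2 and Sgk1 lowest (Ccn2 2.29 against 4.49 and 4.97).

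Against WT of the same set, 774 genes differed (4.41%), 649 with a higher response in D647V-Tetra (3.7%) and 125 with a lower one (0.713%). The lower ones included well-known GR targets. Ccn2 in WT rose from 8.27 and 7.84 to 264 and 242 CPM, above every library of the other lines (log2 4.97; difference -2.68 ± 0.10). Sgk1 in WT rose from 128 and 138 to 851 and 821 CPM (log2 2.65; difference -1.81 ± 0.07), and Tsc22d3 from 26.5 and 23.9 to 142 and 153 CPM (log2 2.55; difference -1.04 ± 0.08). For these 3 genes both WT Dex libraries stood far above every Dex library of D647V-Tetra. Arrdc2, an arrestin-domain gene, differed by -1.17 ± 0.10, Mt1 by -0.65 ± 0.10, the epidermal S100 gene S100a7a by -2.36 ± 0.31 and Cxcl5 by -1.46 ± 0.20. Cxcl5 fell in D647V-Tetra and had a log2 value of 0.53 in WT that did not pass by itself (edgeR adjusted p = 0.143). All 7 differences passed with the length offset, with any 1 of the 10 libraries left out and without D647V-Tetra EtOH 1 and 3. Orm3 rose more in D647V-Tetra than in WT (difference 0.92 ± 0.18), and so did Hras (0.53 ± 0.09); Orm3 and Hras did not pass without WT Dex 2, where edgeR adjusted p was 0.0550 and 0.0605, and Orm3 also not without D647V-Tetra EtOH 1 and 3 (0.115). Of the list of classic GR-induced genes 11 of 33 tested responded less and 1 more than in WT, beside 0.713% and 3.7% of all tested genes. Compared with D647V 3 responded less and 9 more, beside 0.0969% and 0.776% of all tested genes.

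The 6 highest differences against WT were in Hivep3 (1.36), Nav2 (1.33), Kmt2d (1.31), Cacng7 (1.24), Polr2a (1.21) and Zbtb20 (1.20), of which Polr2a encodes the largest subunit of RNA polymerase II and Kmt2d a histone methyltransferase. In Kmt2d the EtOH values were 50.6, 77.2 and 54.5 CPM in D647V-Tetra and 102 and 116 CPM in WT, and the Dex values were 132, 93.2 and 115 against 88.5 and 76.4 CPM. The EtOH levels of the 2 lines thus did not overlap, and the log2 value in WT, -0.40, did not pass by itself (edgeR adjusted p = 0.576). All but Cacng7 are longer than the median gene, up to 32228 exonic bases in Nav2. All 6 passed with the length offset, where Nav2 had a difference of 0.77 and Zbtb20 of 0.66. Polr2a and Zbtb20 passed with any 1 library left out but not without D647V-Tetra EtOH 1 and 3 (edgeR adjusted p = 0.0668 and 0.0636). Hivep3, Nav2, Kmt2d and Cacng7 did not pass without WT EtOH 2 or without WT Dex 2 (highest adjusted p 0.103, 0.114, 0.0989 and 0.203), and Cacng7 also not without D647V-Tetra EtOH 3, Dex 1 or Dex 3. The number of genes higher than in WT was 50 without WT EtOH 2, 69 without WT Dex 2, 12 without D647V-Tetra EtOH 1 and 3, and 418 with the length offset (2.38%, with 107 lower, 0.61%, and 2.99% in all). Leaving out any other single library except WT Dex 1 also moved it by more than 1.5 times, up to 1163 without D647V-Tetra EtOH 2, and the number of lower genes ran from 25 to 506. In WT EtOH 2 and WT Dex 2 the median log2 ratio of the shortest sixth of genes was -0.09 and 0.07, the opposite order to D647V-Tetra. In WT EtOH 1 and WT Dex 1 it was 0.04 and -0.03, the same order as D647V-Tetra.

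Genes that responded in the other lines mostly responded in D647V-Tetra too. In D647V 141 genes rose, of which 128 also rose in D647V-Tetra (90.8% of the D647V list and 7.6% of the D647V-Tetra list), and 24 fell, of which 21 also fell (87.5% and 2.3%). The D647V response took in 0.941% of the genes tested. In WT, where 1.72% of genes were called, 236 rose, of which 173 also rose in D647V-Tetra (73.3% and 10.2%), and 66 fell, of which 45 also fell (68.2% and 4.8%). A single gene, the copper transporter gene Slc31a2, rose in WT and fell in D647V-Tetra. These shares compare lists of very unequal length and were not tested.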

How the data were processed

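Total RNA libraries (100 bp paired reads, with 5% Drosophila S2 cells added) were analysed for D647V-Tetra (3 Dex, 3 EtOH), D647V (3 and 3) and the WT of the same library set (2 and 2). Per the file headers, the authors used featureCounts 2.0.3 to assign reads to gene names over GENCODE vM21 exons, reverse-stranded, both mates counted; the deposited values are raw counts of 55341 names (108 shared by several genes). Per the submitters' processing notes, the build was mm10 and bcl2fastq 2.17, cutadapt and STAR were used. The labels name 2 library kits without assigning them to libraries. Spike-in reads were not used here.

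Counts were tested with edgeR 4.0.16 in R 4.3.3 (filterByExpr, TMM scaling, quasi-likelihood test, two-sided, Benjamini-Hochberg over all genes tested, called at adjusted p below 0.05). The Dex response used the 6 D647V-Tetra libraries (16141 genes, 4 residual degrees of freedom); differences between lines used interaction contrasts in all 16 libraries of the set (17535 genes, 10 degrees of freedom), so levels and responses given for other lines come from that fit. SE is the log2 fold change over the square root of F. The length offset is a loess curve (span 0.3) per library of the log ratio to the mean library over log2 exonic length. Alternatives were DESeq2 1.42.0, limma 3.58.1 voom with sample weights, other scaling, no filter, the replicate number as a block, and libraries left out; scripts were tested on simulated counts. Same-numbered libraries did not deviate together (r = -0.45, -0.67 and 0.23 over 10360 genes), so the numbers were not used as pairs.

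Named genes were the 12 highest and 12 lowest called genes whose treatments did not overlap (average log2 CPM 1 or more), passing over predicted, clone-named and pseudogene names, the 6 highest and 6 lowest of each difference, up to 4 called members with the lowest p of each of 25 lists, and 23 set genes; further list members and Cnga1, Orm1, Orm2 and Col27a1 (neighbours) were chosen after their values were seen; 1 gene that met the rule is not reported here. The members and lists were chosen with earlier results of these data known. Lists were described by counts and medians, with no set test. Promoter windows came from RefSeq.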

Additional observations from a re-analysis of the deposited data

Results flagged for a closer look

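The responses to Dex of 2 lines differed, by a test of the difference itself, for the following named genes (log2 difference, D647V-Tetra minus the other line). Against D647V, D647V-Tetra responded more in Orm3 (2.15), Nipal1 (1.63), Adgra1 (1.27), Il6ra (1.10), Slc25a33 (1.02) and Sik1 (0.97). It responded less, or fell more, in Ccn2 (-2.20), Sgk1 (-0.93), Cxcl5 (-0.92), Plau (-0.55), Ccl2 (-0.46) and Aldh1a7 (-0.44). Against WT of the same set the difference was positive in Hivep3 (1.36), Nav2 (1.33), Kmt2d (1.31), Cacng7 (1.24), Polr2a (1.21) and Zbtb20 (1.20), and negative in Ccn2 (-2.68), S100a7a (-2.36), Sgk1 (-1.81), Cxcl5 (-1.46), Arrdc2 (-1.17) and Tsc22d3 (-1.04). These genes are the 6 highest and 6 lowest of each comparison that met the naming rule, so their sizes are a description of the extremes. Against D647V, Cxcl5, Plau and Ccl2 did not pass with the length offset (edgeR adjusted p = 0.052, 0.139 and 0.164). They passed in 5, 2 and 3 of the 12 fits with 1 library left out. Against WT, the differences in Hivep3, Nav2, Kmt2d and Cacng7 depended on single libraries, as given above. For Ccn2 and Orm3 the EtOH levels of D647V-Tetra and D647V overlapped and the Dex levels did not; for Sgk1 the EtOH levels were 104 to 110 and 117 to 122 CPM.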

How the results depend on the processing

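Calls of the Dex response depended on the libraries and on the length adjustment far more than on the scaling (1686 higher and 931 lower with DESeq2 size factors against 1691 and 928). Higher and lower counts were 770 and 163 with the replicate block, 449 and 68 with the replicate block with length offset, 258 and 57 without EtOH 1 and 3, 2978 and 2341 with limma voom weights, 725 and 74 at 1.5-fold or more, and 240 and 46 for genes called in all 9 fits, a criterion chosen after seeing the data. The counts were 1322 and 347 with the length offset, 2329 and 1481 without the low-count filter and 2067 and 1393 with DESeq2, moves of over 1.5 times in the lower count and under 1.5 times in the higher count. With 1 library left out they ran from 634 to 1994 and from 145 to 1388. The replicate number, which did not pair the libraries, is given for completeness. Of 108 named genes 103 were called, 62 of them in all 9 fits; over their alternatives 1421 values kept direction and call, 188 lost the call, 5 gained it and 6 reversed, in Slc38a1 (-0.0048 with length offset, -0.0051 with block and offset), Rplp1 (0.0122 and 0.0131) and Rn7sk (0.0204 and 0.0241).

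For the difference from D647V, 136 higher and 17 lower became 752 and 184 without the filter, 397 and 96 with DESeq2, 18 and 3 with the replicate block, 31 and 3 with the replicate block with length offset, and 26 and 2 without EtOH 1 and 3; the higher count was 69 with the length offset. Leaving out 1 library gave 42 to 242 and 6 to 29. For the difference from WT, 649 and 125 became 1609 and 815 without the filter, 1227 and 547 with DESeq2, 10 and 15 with the replicate block, 13 and 14 with the replicate block with length offset, 12 and 23 without EtOH 1 and 3, and 394 and 63 with only the 10 libraries of the 2 lines; the higher count was 418 with the length offset. Leaving out 1 library gave 50 to 1163 and 25 to 506. The cause of these shifts was not tested. Among the named genes no value of either difference reversed, and 90 and 69 values lost the call.

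Depth limits low genes: Lcn2 in EtOH rests on at most 0.14 CPM, and counting error is not the whole error, since reads are not independent molecules.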
